A study of Homo sapiens with 12 samples.

Results

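The genes SPRY1, SPRY2 and SPRY4 of the Sprouty family and SPRED1 and SPRED2 of the related SPRED family were described here as 5 named members out of 56638 gene symbols in the count table. They were chosen by name as inhibitors of RAS-ERK signalling, and all 5 were among the 16080 genes that passed the filter on low counts. 501Mel cells, a human BRAF-mutant melanoma line, were treated for 48 h in 6 groups of 2 RNA-seq libraries. The groups were vehicle (DMSO), 1 µM vemurafenib (Vem, an inhibitor of mutant BRAF), 10 nM TCDD (a dioxin that binds the aryl hydrocarbon receptor, AhR), 5 µM resveratrol (RSV, used in the study as an AhR antagonist), RSV+Vem with both agents at those doses, and RSV+TCDD. For RSV+TCDD the sources differ on the TCDD dose, which the sample label gives as 1 nM and the protocol as 10 nM. All 6 groups are the same unmodified line, so every result describes 1 cell line. The labels do not say that the 2 libraries of a group came from separate cultures, and p-values then measure only the spread between these libraries, which may be technical.

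Growth factor receptors switch on RAS, which activates the kinases RAF, MEK and ERK in turn, and in BRAF-mutant melanoma the mutated RAF kinase drives MEK and ERK without that input. ERK activity raises transcription of its own inhibitors, among them the Sprouty genes, the SPRED genes and the dual-specificity phosphatase genes. Sprouty proteins act near receptors and their adaptors, while SPRED proteins bring the RAS inactivator neurofibromin (encoded by NF1) to the membrane and SPRED1 loss is known to cause Legius syndrome.

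The promoters of the 2 members with the largest decrease with Vem, of SPRY1 and of the member with the smallest decrease are printed because these members moved together to very different degrees. Each is the 250 bases before a RefSeq start site (GRCh38.p14), 5′ to 3′ on the gene's strand, and the RefSeq table held 9 promoters for the 5 genes. Capitals mark CCGGAA, an ETS-type motif with its flank, and GCGTG, the core of the AhR response element. The search covered both strands for the ETS core GGAA, the flanked ETS form CCGGAA, the AP-1 motif TGANTCA, the CRE motif TGACGTCA, the AhR core GCGTG and the E-box CANNTG. Every flanked ETS form also holds the ETS core.
SPRY4, minus strand, chr5:142324248-142324497: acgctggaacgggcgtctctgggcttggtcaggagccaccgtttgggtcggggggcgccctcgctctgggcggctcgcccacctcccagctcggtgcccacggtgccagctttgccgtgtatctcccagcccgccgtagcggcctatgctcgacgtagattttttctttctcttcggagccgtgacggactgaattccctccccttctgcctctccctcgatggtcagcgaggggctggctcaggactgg
SPRY2 promoter 3, minus strand, chr13:80341127-80341376: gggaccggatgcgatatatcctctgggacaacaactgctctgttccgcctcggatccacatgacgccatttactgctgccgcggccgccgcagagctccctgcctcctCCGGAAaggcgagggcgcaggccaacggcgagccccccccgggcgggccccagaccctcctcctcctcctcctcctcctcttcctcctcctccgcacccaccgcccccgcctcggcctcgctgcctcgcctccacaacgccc
SPRY1 promoter 2, plus strand, chr4:123398136-123398385: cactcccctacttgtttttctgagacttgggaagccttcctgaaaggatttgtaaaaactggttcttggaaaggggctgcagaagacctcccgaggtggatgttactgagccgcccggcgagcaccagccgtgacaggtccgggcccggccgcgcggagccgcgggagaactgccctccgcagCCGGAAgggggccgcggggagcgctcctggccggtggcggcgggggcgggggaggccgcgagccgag
SPRED2 promoter 2, minus strand, chr2:65432600-65432849: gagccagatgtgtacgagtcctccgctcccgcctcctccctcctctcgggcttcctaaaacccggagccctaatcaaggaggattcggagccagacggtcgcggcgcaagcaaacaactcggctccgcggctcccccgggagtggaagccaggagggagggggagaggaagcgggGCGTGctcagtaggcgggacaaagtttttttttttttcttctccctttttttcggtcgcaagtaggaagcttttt
Counted from the start site, CCGGAA began at -142 in promoter 3 of SPRY2 and at -67 in promoter 2 of SPRY1, which made 2 of the 9 promoters, while the SPRY4 window held none of the letters in capitals. GCGTG began at -75 in promoter 2 of SPRED2 and at -50 in the other SPRY1 promoter, also 2 of the 9. The printed windows of SPRY2, SPRY1 and SPRED2 each hold a marked motif. Promoters 1 and 2 of SPRY2 and promoter 1 of SPRED2, which are not printed, hold none. Of 34675 promoters of the same length, 14.5% held CCGGAA, 32.2% GCGTG, 6.57% TGANTCA, 1.64% TGACGTCA, 61.8% CANNTG and 92.7% GGAA. The AP-1 and CRE motifs were found in 0 of the 9 promoters, and the ETS core in all 9 of them. A match describes letters in this window and not a bound site.

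In the annotation of the build the reads were aligned to (GRCh37, also called hg19), SPRY1 lies on chromosome 4 from 124317950 to 124324915, SPRY2 on chromosome 13 from 80910111 to 80915261 and SPRY4 on chromosome 5 from 141689992 to 141706020. SPRED1 lies on chromosome 15 from 38545037 to 38649450, and SPRED2 on chromosome 2 from 65537985 to 65659771. The counts are sums over each gene's exons, which hold 3963 bases in SPRY1, 3213 in SPRY2, 6555 in SPRY4, 7750 in SPRED1 and 5505 in SPRED2. None of the 5 shares an exonic base with another annotated gene. SPRY4-AS1, on the opposite strand, overlaps the SPRY4 locus with 0 shared exonic bases.

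The libraries held between 8378655 and 25076925 counts on genes, and levels are given as CPM, the count divided by library size and scaled to the usual common total, with library sizes corrected by the trimmed mean of M-values (TMM). RNA integrity numbers were 8.7 and 8.6 in the RSV+Vem libraries and 9.1 to 9.7 in the other 10, and RSV+Vem replicate 2 had the lowest total. The part of RNA quality in the results on RSV+Vem was not tested. The melanocytic markers MITF, SOX10, PMEL, MLANA, TYR, TYRP1 and DCT were at 390.2 CPM or more in all 12 libraries, and the highest of 12 markers of keratinocytes, fibroblasts, leukocytes and endothelium was COL1A1 at 2.59 CPM. KRT1 and PECAM1 were at 0 counts in every library.

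In vehicle cells all 5 members were well measured, with 495 to 2220 counts per library. Per kilobase of exon, SPRED2 was the most abundant at 16.1 ± 0.290 CPM per kb (SD, n = 2). SPRY1 at 10.1 ± 7.08, SPRED1 at 9.49 ± 1.71, SPRY2 at 9.07 ± 1.27 and SPRY4 at 9.03 ± 0.775 CPM per kb overlapped one another between the 2 libraries. The other family members were far lower, SPRY3 with 8 to 35 counts in all libraries and SPRED3 with 1 to 6, and SPRED3 did not pass the filter on low counts.

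Vem against vehicle asks how Vem changes these inhibitors. The study reports that Vem also binds AhR, and this comparison cannot tell that action apart from inhibition of mutant BRAF. All 5 members were lower with Vem, where the same test called 26.9% of all tested genes lower and 25.5% higher. Scaling to the ERCC spike-ins in place of TMM put the median of all genes at -0.68 on the log2 scale and called 195 genes higher and 3620 lower, and all 5 members stayed called lower. SPRY4, an inhibitor known to be induced by ERK, fell most. It was at 55.6 and 62.7 CPM in the vehicle libraries and at 1.67 and 0.615 CPM with Vem, which rested on 24 and 8 counts. The log2 fold change was -5.66 (standard error 0.22, adjusted p = 1.69e-12 by the quasi-likelihood test of edgeR, adjusted after Benjamini and Hochberg, as for every adjusted p below), or 50.5-fold lower, the change ranked 38 of 16080 from the lowest. It was -6.57 without Vem replicate 1 and -5.15 without Vem replicate 2, called in both. These are whole-culture measurements, in which fewer cells making a transcript and less of it per cell cannot be told apart.

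SPRY2, a Sprouty whose protein is a known target of the ubiquitin ligase CBL, was at 32.0 and 26.3 CPM in vehicle and at 2.02 and 1.38 CPM with Vem. It fell 16.9-fold (log2 fold change -4.08, standard error 0.24, adjusted p = 2.11e-10), and its rank was 95 from the lowest. SPRY1 was at 59.7 and 20.03 CPM in vehicle and at 5.08 and 3.69 CPM with Vem. Its groups did not overlap, but its vehicle libraries differed 2.98-fold, the widest spread between the 2 libraries of a group among the 5 members. Its log2 fold change was -3.17 (standard error 0.54, adjusted p = 0.00211). That value was -2.19 without vehicle replicate 1 and -3.74 without vehicle replicate 2, and a fit of the 4 Vem and vehicle libraries alone did not call it (adjusted p = 0.102).

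The SPRED transcripts fell less. SPRED1 was at 82.9 and 64.2 CPM in vehicle and at 25.5 and 22.7 CPM with Vem, 3.04-fold lower (log2 fold change -1.61, standard error 0.15, adjusted p = 8.47e-08). SPRED2 was at 87.5 and 89.8 CPM in vehicle and at 57.7 and 54.5 CPM with Vem, 1.58-fold lower (log2 fold change -0.66, standard error 0.097, adjusted p = 1.58e-05). The ranks of SPRED1 and SPRED2 from the lowest were 952 and 3361. In all 5 members both Vem libraries lay below both vehicle libraries, and the share of all tested genes with such separation was not counted.

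**Figure D1:**
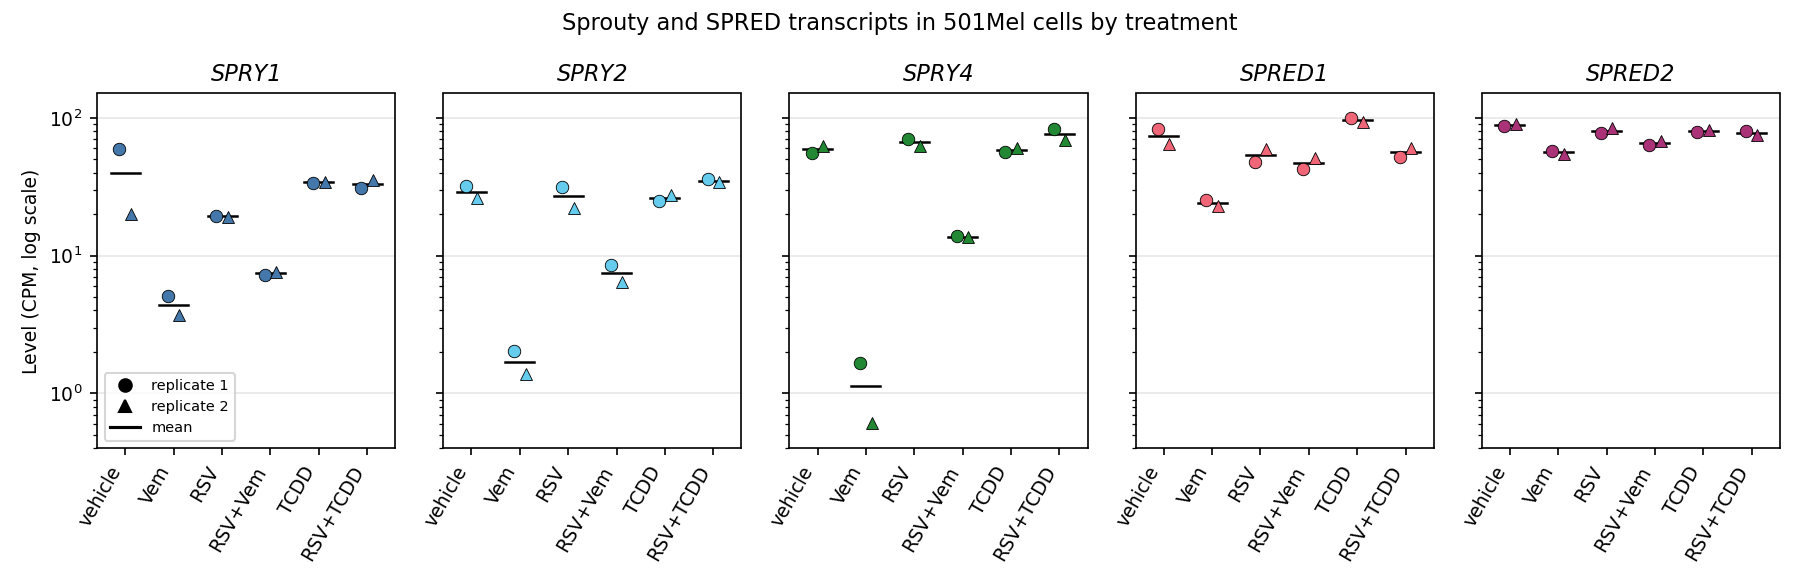
Levels of the 5 members in CPM on a log axis in the 6 treatment groups, with a circle for replicate 1, a triangle for replicate 2 and a line for their mean. The Vem libraries are the lowest of every member, SPRY4 reaches 0.615 CPM there, and the 2 vehicle libraries of SPRY1 stand apart at 59.7 and 20.03 CPM.

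The decrease changed the makeup of the pool. Summed over the 5 members, the level per length was 60.1 and 47.4 CPM per kb in the vehicle libraries and 15.9 and 14.3 with Vem. SPRED2 made up 30.0% of that sum in vehicle and 67.4% with Vem, while SPRY4 went from 16.8% to 1.15% and SPRY2 from 16.9% to 3.50%. With Vem the order was SPRED2 at 10.2, SPRED1 at 3.11, SPRY1 at 1.11, SPRY2 at 0.529 and SPRY4 at 0.174 CPM per kb, and no 2 neighbours in that order overlapped between their libraries. This order is a description of 2 libraries, and annotated exons stand in for the transcripts in use.

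**Figure D2:**
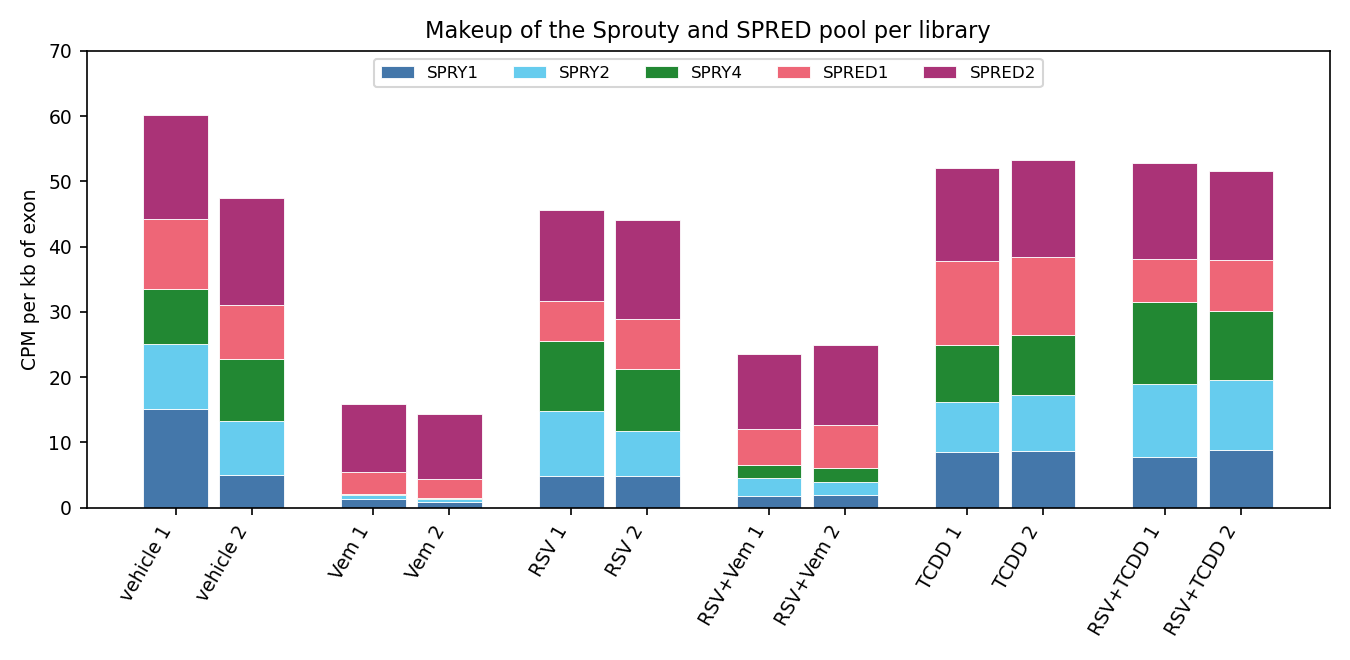
Level of each member in CPM per kb of exon, stacked for each of the 12 libraries, with replicate numbers after the group names. The whole bar falls from 60.1 and 47.4 in vehicle to 15.9 and 14.3 with Vem, where the SPRED2 segment is the largest, and stands at 23.5 and 25.0 in RSV+Vem.

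RSV+Vem against RSV asks for the effect of Vem when RSV is present, and shares no library with Vem against vehicle. There 3 of the 5 members were called lower, SPRY2, SPRY4 and SPRED2, where 13.4% of tested genes were. SPRY4 was at 70.1 and 62.3 CPM in the RSV libraries and at 13.8 and 13.7 CPM in RSV+Vem, 4.81-fold lower (log2 fold change -2.27, standard error 0.16, adjusted p = 1.13e-08). SPRY2 was at 31.7 and 22.2 CPM with RSV and at 8.62 and 6.41 CPM with RSV+Vem, 3.48-fold lower (log2 fold change -1.80, standard error 0.19, adjusted p = 2.82e-06). Both transcripts thus lay below their RSV level and well above their level with Vem alone.

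SPRY1 was at 19.5 and 19.0 CPM with RSV and at 7.24 and 7.65 CPM with RSV+Vem, without overlap. Its log2 fold change of -1.38 (standard error 0.52) had an adjusted p = 0.103, while DESeq2 gave an adjusted p = 0.0209 and a fit of only these 4 libraries an adjusted p = 3.5e-04. SPRY1 was also called under scaling to the spike-ins (-1.91, adjusted p = 0.00393) and with no robust estimation (adjusted p = 0.0111). SPRED2 was at 77.5 and 84.1 CPM with RSV and at 63.1 and 68.1 CPM with RSV+Vem (log2 fold change -0.30, standard error 0.097, adjusted p = 0.0294), a call lost without RSV replicate 2 (adjusted p = 0.165) or without either RSV+Vem library (adjusted p = 0.222 and 0.0537), in a fit of only these 4 libraries (adjusted p = 0.0815) and under scaling to the spike-ins (adjusted p = 0.281). SPRED1 was at 47.5 and 59.3 CPM with RSV and at 42.4 and 51.1 CPM with RSV+Vem, groups that overlapped, with a log2 fold change of -0.20 (95% interval -0.51 to 0.10).

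The difference between these effects of Vem is the interaction of RSV and Vem. It was above 0 for all 5 members and called for 3, SPRY2, SPRY4 and SPRED1, where 11.8% of tested genes were called in that direction. It was 3.39 on the log2 scale for SPRY4 (standard error 0.29, adjusted p = 7.18e-07), 2.28 for SPRY2 (standard error 0.32, adjusted p = 7.38e-05) and 1.40 for SPRED1 (standard error 0.21, adjusted p = 1.26e-04). These values ranged from 2.88 (without Vem replicate 2) to 4.31 (without Vem replicate 1) for SPRY4, from 2.01 to 2.59 for SPRY2 and from 1.21 to 1.57 for SPRED1 when each library was left out, called each time. Under scaling to the spike-ins, where 8 genes were called higher and 0 lower, SPRY4 stayed called (3.52, adjusted p = 0.00237), while SPRY2 (2.43, adjusted p = 0.158) and SPRED1 (1.504, adjusted p = 0.731) did not. The estimates of SPRY2 and SPRED1 were above those under TMM, with wider standard errors of 0.68 and 0.61. Spike-ins were 0.03885% and 0.0903% of the counts in the 2 RSV+Vem libraries. The part of that difference in the wider errors was not tested. The mean level with Vem was 1.93% of vehicle for SPRY4 without RSV, and 20.8% of the RSV level with it. For SPRY2 these were 5.83% and 27.9%, and for SPRED1 32.8% and 87.5%. For SPRED2, at 63.2% and 81.2%, the interaction was 0.36 with an adjusted p = 0.0687 and a standard error of 0.14.

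SPRY1 was at 11.0% of vehicle with Vem and at 38.6% of RSV with RSV+Vem, and its interaction of 1.79 had a standard error of 0.77 and an adjusted p = 0.149. DESeq2 called it (adjusted p = 0.0350). Its interaction was 0.81 without vehicle replicate 1 and 2.37 without vehicle replicate 2, both called.

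**Figure D3:**
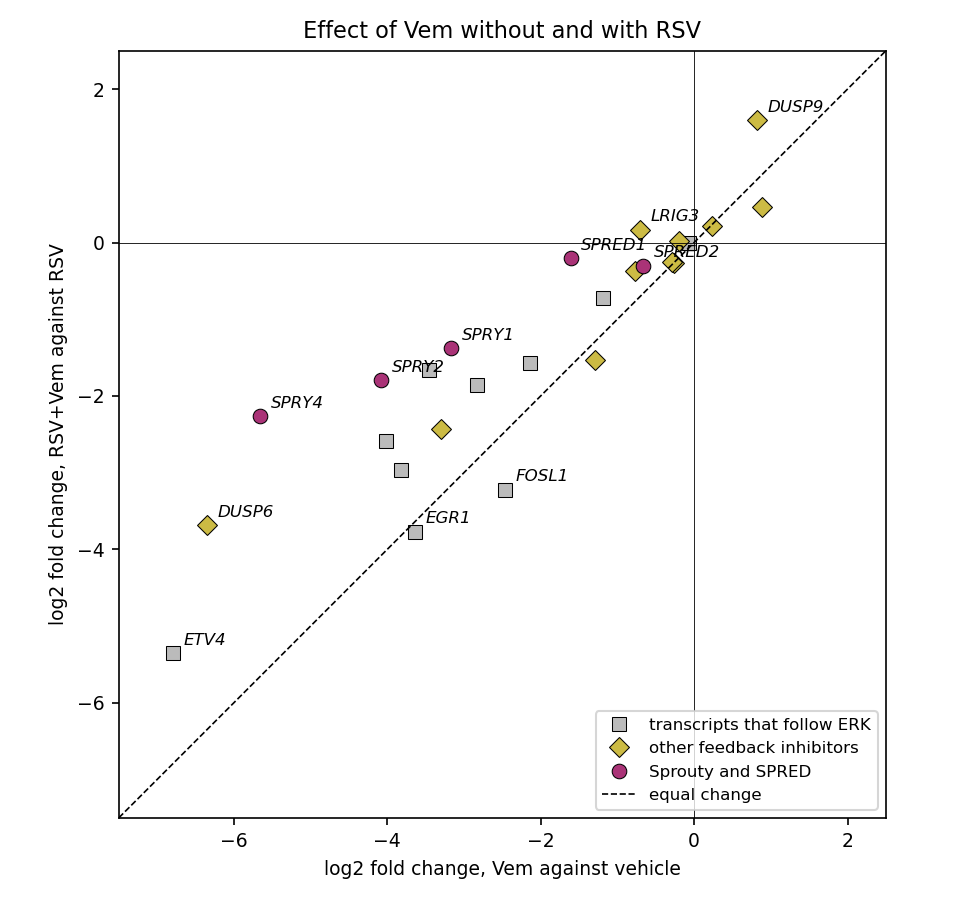
Log2 fold change of Vem against vehicle on the x axis and of RSV+Vem against RSV on the y axis for the 5 Sprouty and SPRED genes, 11 other feedback inhibitors and 10 transcripts that follow ERK, with a dashed line where both are equal. The 5 members lie above the line, SPRY4 at -5.66 and -2.27, and EGR1 and FOSL1 lie below it.

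RSV+Vem against Vem gives the same data from the other side, and shares its libraries with the comparisons above. In it 3 members were called higher, where 19.1% of tested genes were. SPRY4 was 11.7-fold higher (adjusted p = 1.43e-08, log2 fold change 3.55, or 4.47 without Vem replicate 1 and 3.04 without Vem replicate 2), SPRY2 4.50-fold (adjusted p = 7.03e-06) and SPRED1 1.92-fold (adjusted p = 1.01e-04, or 0.413 under scaling to the spike-ins). SPRED2, 1.17-fold higher, and SPRY1, 1.68-fold higher, were not called (adjusted p = 0.0839 and 0.398). SPRY1 was called in a fit of only these 4 libraries (0.75 on the log2 scale, adjusted p = 0.00576), and SPRED2 with at least 10 counts asked of each library (adjusted p = 0.0495). Set against vehicle, the RSV+Vem means were 23.2% for SPRY4, 25.8% for SPRY2, 18.7% for SPRY1, 63.5% for SPRED1 and 74.0% for SPRED2.

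RSV alone asks what this agent does without an added ligand, and CYP1A1, the standard AhR target, was higher there by 1.55 on the log2 scale (adjusted p = 4.36e-08). CYP1A1 was lower in Vem against vehicle (-0.84, adjusted p = 3.37e-05) and in RSV+Vem against RSV (-1.46), and higher in RSV+Vem against Vem (0.94). With RSV alone, SPRED1 was the 1 member called, and it was lower, as were 20.2% of tested genes. It was at 82.9 and 64.2 CPM in vehicle and at 47.5 and 59.3 CPM with RSV (log2 fold change -0.46, standard error 0.14, adjusted p = 0.0143), and the call was lost without vehicle replicate 1 (-0.27, adjusted p = 0.181) and without RSV replicate 1 (-0.31, adjusted p = 0.145) and under scaling to the spike-ins (-0.65, adjusted p = 0.571). SPRY4 had a log2 fold change of 0.16 (95% interval -0.13 to 0.45), SPRY2 of -0.11 (-0.46 to 0.23) and SPRED2 of -0.13 (-0.33 to 0.066). SPRY1 was at -1.04 (-2.09 to 0.016, adjusted p = 0.107), a value that was -0.061 without vehicle replicate 1 and -1.63, called, without vehicle replicate 2.

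TCDD against vehicle asks the same of TCDD, and CYP1A1 was higher there by 2.62 on the log2 scale (adjusted p = 3.6e-10). CYP1A1 was called lower in RSV+TCDD against RSV (-0.70) and against TCDD (-1.77), with an interaction of RSV and TCDD of -3.32, also called. In TCDD against vehicle, edgeR and DESeq2 each called 0 of the 5 members, and 1 had an unadjusted p below 0.05, where 6.73% of tested genes were called. The 95% intervals were -0.30 to 0.28 for SPRY4, -0.50 to 0.19 for SPRY2, -0.34 to 0.055 for SPRED2, 0.097 to 0.68 for SPRED1 and -1.24 to 0.81 for SPRY1. SPRED1 had the lowest p (log2 fold change 0.39, adjusted p = 0.105), with 99.5 and 92.5 CPM above both vehicle libraries. It was called with no filter on low counts (0.36, adjusted p = 0.0332). Its value was 0.58 without vehicle replicate 1 and 0.21 without vehicle replicate 2. Under scaling to the spike-ins, which put the median of all genes at -0.51, its value was -0.12.

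The study describes Vem as an AhR ligand that, unlike TCDD, did not induce CYP1A1. Against TCDD all 5 members were lower with Vem, where 26.4% of tested genes were. The log2 fold changes were -5.65 for SPRY4, -3.93 for SPRY2, -2.95 for SPRY1, -1.99 for SPRED1 and -0.52 for SPRED2, with adjusted p from 1.29e-12 to 0.00326. SPRY4 was at -6.56 without Vem replicate 1 and at -5.13 without Vem replicate 2, and SPRED2 lost its call under scaling to the spike-ins (-0.66, adjusted p = 0.403).

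**Figure D4:**
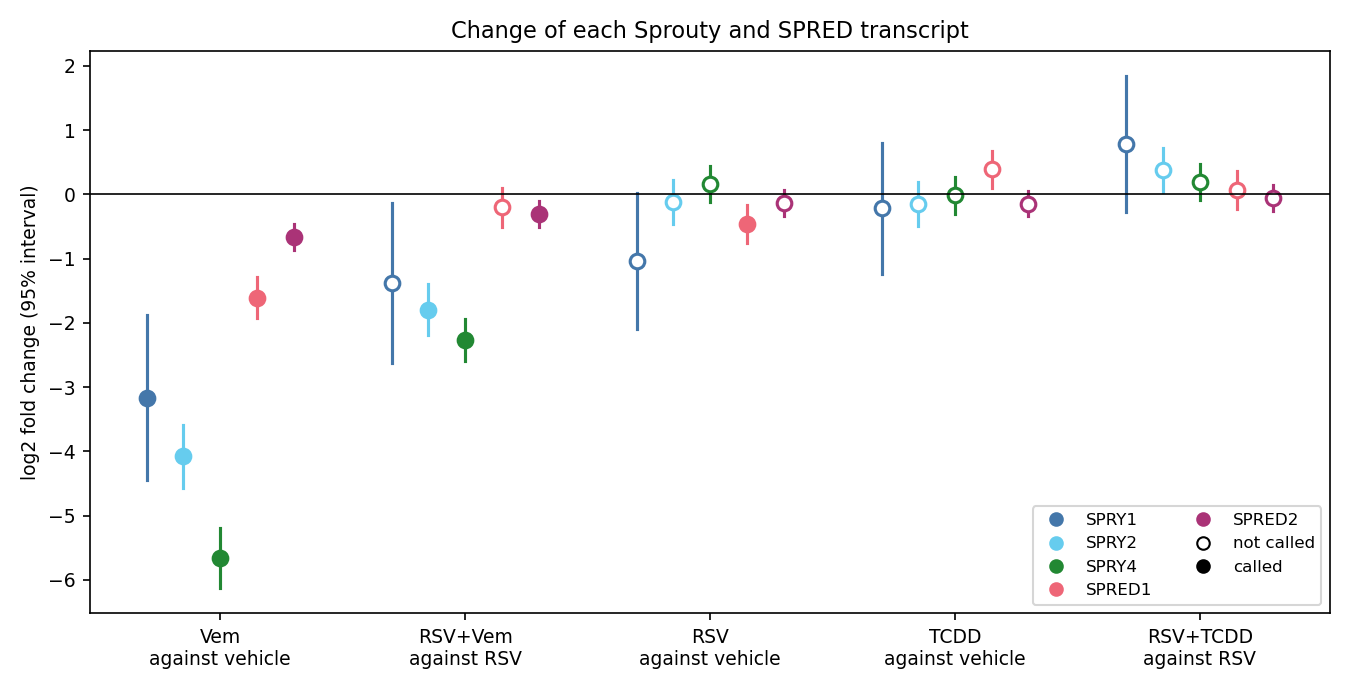
Log2 fold change of each member in 5 comparisons, with 95% intervals as vertical lines, filled circles for changes called at an adjusted p below 0.05 and open circles for the rest. The Vem values run from -5.66 for SPRY4 to -0.66 for SPRED2, the RSV+Vem values from -2.27 to -0.20, and 0 circles are filled in the TCDD comparisons.

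With RSV present, TCDD called 0 of the 5 members in both edgeR and DESeq2, with 1 unadjusted p below 0.05, where 6.16% of tested genes were called. SPRY2 was at 35.7 and 34.1 CPM in RSV+TCDD against 31.7 and 22.2 CPM with RSV (log2 fold change 0.38, adjusted p = 0.187). SPRY1 was at 30.8 and 35.3 CPM against 19.5 and 19.0 CPM, without overlap (log2 fold change 0.78, standard error 0.45, adjusted p = 0.386), and a fit of only these 4 libraries called it (adjusted p = 0.00953).

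In RSV+TCDD against TCDD, 2 members were called in opposite directions, where 37.7% of tested genes were called. SPRED1 was at 51.6 and 60.6 CPM in RSV+TCDD and at 99.5 and 92.5 CPM with TCDD, 1.71-fold lower (log2 fold change -0.78, standard error 0.14, adjusted p = 3.45e-04). SPRY4 was at 82.3 and 69.1 CPM against 56.7 and 60.8 CPM (log2 fold change 0.37, standard error 0.14, adjusted p = 0.0426), a call lost without RSV+TCDD replicate 1 (0.24, adjusted p = 0.312) or without either TCDD library, and its direction turned under scaling to the spike-ins (-0.29). SPRY2 had a log2 fold change of 0.42 and an adjusted p = 0.0515. It was called with RLE factors (adjusted p = 0.0466), no filter (0.00983), at least 10 counts in each library (0.0418), a replicate block (0.0286) and only these 4 libraries (0.0042), and turned direction under scaling to the spike-ins (-0.26). For TCDD the interaction with RSV called 0 members in edgeR and in DESeq2, with 1 unadjusted p below 0.05, where 0.149% of tested genes were called.

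The RAS-ERK genes around the members moved less evenly. Of all tested genes, 26.9% were called lower and 25.5% higher with Vem, and 13.4% lower in RSV+Vem against RSV. The interaction of RSV and Vem was called above 0 for 11.8%. The lists below were not tested against these shares. Of 10 transcripts that follow ERK activity, Vem lowered 9 and raised 0, with a median log2 fold change of -3.14 where that of all tested genes was -0.030. ETV4 and ETV5, ETS factors, fell most (-6.79, adjusted p = 8e-15, and -4.02, adjusted p = 1.69e-14), and EPHA4 at -0.064 was the 1 not called. With RSV present the same counts were 9 lower and 0 higher with a median of -2.22, and the interaction was called above 0 for 6, among them ETV1 (1.79), ETV5 (1.43), ETV4 (1.43) and EPHA2 (0.97), with a list median of 0.72. Under scaling to the spike-ins the counts with Vem stayed at 9 lower and 0 higher, while the interaction was called for 0. EGR1 and FOSL1 had interactions of -0.13 and -0.75 that were not called (adjusted p = 0.946 and 0.467).

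Of 11 other feedback inhibitors, 5 fell and 2 rose with Vem, with a median of -0.29. The largest decreases were those of the ERK phosphatase genes DUSP6 and DUSP4. DUSP6 was at 110.7 and 98.5 CPM in vehicle and at 1.81 and 0.692 CPM with Vem (-6.35, adjusted p = 4.87e-12), and DUSP4 fell by 3.30 on the log2 scale. PEBP1, the RAF kinase inhibitor protein gene, and DUSP9 rose by 0.88 and 0.82. The interaction of RSV and Vem was called above 0 for DUSP6 (2.66), DUSP4 and LRIG3 (each 0.87) and below 0 for PEBP1 (-0.42). Under scaling to the spike-ins 5 fell and 0 rose with Vem, and the interaction was called for 1. DUSP6 was at 1.195% of vehicle with Vem and at 7.64% of RSV with RSV+Vem, and ETV4 at 0.895% and 2.41%.

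Of 17 genes of the RAS switch, 5 rose and 4 fell with Vem, with a median of 0.077, where 25.5% of all tested genes rose and 26.9% fell. Under scaling to the spike-ins 0 rose and 3 fell. MRAS (1.38) and RRAS (1.22), RAS-related GTPases, rose most, and RASA2, a RAS inactivator, and RRAS2 fell most (-1.49 and -1.03). Genes with an interaction called above 0 included RASA2 (1.08) and RRAS2 (0.82). Of 11 partners of Sprouty and SPRED proteins, 3 rose and 1 fell, and 0 were called under scaling to the spike-ins. TESK1 (1.00) and MKNK2 (0.69), kinase genes, rose most, and NEDD4, a ubiquitin ligase gene, fell (-0.30). NF1, the partner of the SPRED proteins, was not called with Vem, and was lower with RSV (-0.78, adjusted p = 7e-05). Of 9 RAF, MEK and ERK genes tested, ARAF (0.59) and MAPK3 (0.41) rose and MAP2K1 (-0.60) fell, and the interaction called 0 of them. The 2 increases were lost under scaling to the spike-ins, with 1 gene lower.

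Of 11 growth factor receptor genes tested, 6 rose and 5 fell with Vem, but 0 rose and 5 fell under scaling to the spike-ins. PDGFRA (1.97, from 3 and 5 counts in vehicle and 10 in each Vem library) and ERBB2 (0.92) rose most. EGFR, called lower (adjusted p = 0.0325), had 3 and 5 counts in vehicle and 0 in both Vem libraries, too few to give a fold, and FGFR4 fell by 1.48 on the log2 scale. Of 6 ligand genes tested, FGF1 rose (1.90, from 2 and 3 counts to 3 and 9), and KITLG (-0.92), PDGFC (-0.88) and EGF (-0.84) fell. DESeq2 called 0 of the ligands higher and 2 lower.

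In the other comparisons these lists were called as follows, with log2 fold changes for genes of lists with 3 or fewer called. Of all 16080 tested genes, 1823 were called higher and 2149 lower in RSV+Vem against RSV. In RSV+Vem against Vem these were 3079 and 3009, and in Vem against TCDD 3881 and 4250. The interaction of RSV and Vem was called above 0 for 1905 genes and below 0 for 1751. The lists were not tested against these counts. With RSV present, Vem raised 4 and lowered 0 of the RAS switch genes, raised 1 (DYRK1A, 0.56) and lowered 2 (CBL, -0.40, and SH3KBP1, -0.28) of the partners, raised MAPK3 (0.45) and SHOC2 (0.33), raised 2 and lowered 3 of the other feedback inhibitors, raised 4 and lowered 2 of the receptors and lowered the ligands EGF (-1.62) and HBEGF (-0.56). The interaction of RSV and Vem was called for ERBB3 (0.90), KITLG (0.72), PDGFC (0.78), DYRK1A (0.58), TESK1 (-0.74) and MKNK2 (-0.57) among receptors, ligands and partners. RSV+Vem lay above Vem in 5 and below it in 0 of the transcripts that follow ERK, in 6 and 2 of the other feedback inhibitors, in 3 and 3 of the RAS switch genes, in 3 and 2 of the receptors and in 5 and 0 of the ligands, with SIAH2 (0.43), NEDD4 (0.65) and SH3KBP1 (0.36) higher among the partners and ARAF (-0.51) and MAPK3 (-0.58) lower. With Vem against TCDD, 9 of the transcripts that follow ERK were lower and 0 higher, 5 of the other feedback inhibitors lower and 1 higher, and EGF (-1.09), KITLG (-0.63) and PDGFC (-0.63) lower. The RAS switch genes then held 5 higher and 2 lower, the partners 4 higher and 0 lower, the RAF, MEK and ERK genes 3 higher and 1 lower and the receptors 3 higher and 5 lower.

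Of all 16080 tested genes, 759 were called higher and 323 lower with TCDD. In RSV+TCDD against RSV these were 625 and 366, with RSV alone 3295 and 3243, and in RSV+TCDD against TCDD 2989 and 3068. With TCDD, NEDD4 (-0.44), DYRK1A (-0.48) and DUSP6 (-0.77) were lower, and RRAS (0.81), DUSP4 (0.48), ETV5 (0.32), EGFR (2.07, with 9 and 19 counts) and KIT (0.71) were higher. Scaling to the spike-ins left 0 of these lists' genes called, where 10 of 16080 tested genes were called. DESeq2 called 1 receptor higher in place of 2, and 2 transcripts that follow ERK higher in place of 1. In RSV+TCDD against RSV, SHC1 (-0.43) and FGFR3 (-1.15) were lower, and DUSP7 (0.39), DUSP10 (0.72), ETV4 (0.45), CCND1 (0.47), EPHA4 (0.68) and KIT (0.37) were higher. With RSV alone, MAPK3 was lower (-0.62) and KSR1 higher (0.45), and the other feedback inhibitors held 5 higher and 3 lower, the transcripts that follow ERK 2 higher and 2 lower, the RAS switch genes 3 higher and 4 lower, the partners 4 higher and 2 lower, the receptors 3 higher and 2 lower and the ligands 4 higher and 0 lower. In RSV+TCDD against TCDD, MAPK3 was lower (-0.54), and the other feedback inhibitors held 4 higher and 2 lower, the transcripts that follow ERK 3 higher and 2 lower, the RAS switch genes 2 higher and 3 lower, the partners 3 higher and 2 lower, the receptors 1 higher and 3 lower and the ligands 5 higher and 0 lower. The interaction of RSV and TCDD called 0 genes of these lists in edgeR, where 24 of 16080 tested genes were called. DESeq2 called 1 of the transcripts that follow ERK and 1 of the other feedback inhibitors higher, where 77 of 16080 tested genes were called. Under scaling to the spike-ins, 0 genes of the RAS switch, of the partners and of the RAF, MEK and ERK genes were called with RSV alone, in RSV+Vem against RSV, in RSV+Vem against Vem and in the interaction of RSV and Vem. Of all 16080 tested genes, 369, 481, 389 and 8 were called there, in that order. In RSV+TCDD against RSV that scaling called 6926 tested genes lower and 1 higher. Of these lists 0 genes were higher there. Lower were 9 RAS switch genes, 7 partners, 5 RAF, MEK and ERK genes, 4 receptors and 2 ligands.

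Across the 12 libraries, the log2 CPM of SPRY2 and SPRY4 had a Pearson r of 0.988, and the other 9 pairs of members had r from 0.835 to 0.924. Among 11954 genes whose mean count was 50 or more, the genes most like SPRY4 were AURKB and SMAD7 (r = 0.990 each) and RFC4 (0.989), and the one least like it was DECR1 (-0.990). Those most like SPRY2 were TNFAIP3 (0.992), SPRY4 (0.988) and ETV1 (0.987), and the least like was CAPNS1 (-0.990). For SPRY1 they were IL1RAP (0.982), RFX3 (0.978) and MANBA (0.973), with LANCL2 at -0.981. For SPRED1 they were USP3 (0.985), ZC3H12C (0.980) and NUP37 (0.976), with CLPTM1 at -0.986, and for SPRED2 FANCD2 (0.985), NCAPG2 and AHCTF1 (0.980 each), with SRRM3 at -0.982. These are descriptions over libraries that share 6 treatments, so that genes with the same treatment pattern have a high r whatever their function.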

How the data were processed

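Poly(A) RNA of 12 samples was sequenced, and per the labels and the study's methods reads were aligned to hg19 with STAR 2.4.0a and assigned to gene symbols with featureCounts of Subread 1.5.0-p3. The annotation release is not given in the sources used here. The deposited table holds the authors' raw counts, not normalized, and lists 56638 gene symbols beside 96 controls (92 ERCC spike-ins). Controls were 0.0310% to 0.0936% of a library's counts and were left out of library sizes and tests. The counting strand was set to forward for a kit of the reverse type, so strand was checked: in 7 pairs where at least 80% of a non-coding gene lay in exons of a coding gene of the other strand, the non-coding gene had a median of 0.122% of the coding gene's level per length, and more than it in 0.

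Genes were kept by edgeR's filterByExpr and fitted with edgeR 4.0.16 (R 4.3.3, robust quasi-likelihood test, TMM factors, 1 term per group, all 12 libraries), with Benjamini-Hochberg adjustment over 16080 genes and a threshold of 0.05. The script was tested on simulated data. An interaction is the effect of Vem or TCDD with RSV minus the effect without it. Levels per length used the exons of GENCODE v44 lifted to GRCh37, which may differ from the annotation counted. With 8378655 to 25076925 counts per library and 2 libraries per group, transcripts under about 10 counts are imprecise.

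The members, lists and tests were chosen with earlier results of these data known. The text names the 5 members, SPRY3 and SPRED3, for each list the 2 largest increases and decreases called with Vem, called genes of lists with 3 or fewer calls elsewhere, and the 3 most similar genes and the least similar one of each member. Alternatives were DESeq2 1.42.0, RLE factors, no filter, a minimum of 10 counts in each library, a replicate block, spike-in scaling, only the libraries compared, each library left out, and, added after seeing the data, no robust estimation. Over genes whose mean count was 50 or more, libraries with the same replicate number deviated together (r above 0.1) in 6 of 15 pairs of groups and apart (r below -0.1) in 4, from -0.37 to 0.43, so the numbers were not taken as pairs. Protein sequences were not used here, and 1 gene of the lists is not reported here by name.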

Additional observations from a re-analysis of the deposited data

Results flagged for a closer look

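The effect of Vem differed between cells without and with RSV for 3 members, by the interaction in the model fitted across all genes. It was 3.39 on the log2 scale for SPRY4, 2.28 for SPRY2 and 1.40 for SPRED1. Leaving out any 1 library kept these 3 called, and SPRY4 alone of the 5 members was called under scaling to the spike-ins.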

How the results depend on the processing

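Of 630 fold changes of members under an alternative, 570 kept their direction and their side of the threshold, 24 passed it newly, 16 lost it and 20 turned direction. With Vem against vehicle and Vem against TCDD all 5 members stayed lower under every setting, with SPRY1 (against vehicle) and SPRED2 (against TCDD, under spike-in scaling) losing their call in 1 setting each. SPRY4 had no value with at least 10 counts in every library, since 1 Vem library has 8.

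Spike-in scaling moved the median of all genes to -0.68 with Vem, -0.51 with TCDD, -0.17 with RSV, -0.52 in RSV+Vem against RSV, -1.02 in RSV+TCDD against RSV, -0.70 in RSV+TCDD against TCDD and 0.15 and -0.52 for the interactions of RSV with Vem and with TCDD. It called 3815 genes with Vem (8422 under TMM) and 8 in the interaction of RSV and Vem (3656 under TMM). Under it SPRED1 was at -0.12 with TCDD. In RSV+TCDD against RSV, SPRED1 was at -0.96, SPRY1 at -0.27, SPRY2 at -0.67 and SPRY4 at -0.81, and these were not called. SPRED2, at -1.06 (adjusted p = 0.0438 in edgeR), was the 1 member called, where 6926 of 16080 tested genes were called lower and 1 higher. In RSV+TCDD against TCDD, SPRY2 was at -0.26 and SPRY4 at -0.29. There SPRED1 was the 1 member called, where 1752 of 16080 tested genes were called lower and 160 higher. The interaction of RSV and TCDD was -0.40 for SPRED2 and -0.29 for SPRY4. Spike-in scaling called 0 members with RSV, where 369 of 16080 tested genes were called, and 1 in the interaction of RSV and Vem. The cause was not tested.

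With TCDD, SPRED1 was the 1 member called with no filter on low counts, where 1524 of 31085 tested genes were. With RSV, 2 members were called with no robust estimation, where 6578 of 16080 tested genes were. In RSV+TCDD against RSV, 1 member was called in a fit of only the libraries compared, where 586 of 15281 tested genes were.

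A fit with 1 library left out leaves 1 library in its group. In these fits the number of members called changed with TCDD, with RSV, in RSV+TCDD against RSV and against TCDD, and in the interaction of RSV and TCDD. Fold changes that turned direction spanned -0.81 to 0.77 (SPRY1) and -0.097 to 0.073 (SPRY4) with TCDD, -0.39 to 0.12 (SPRY2) with RSV, -0.073 to 0.24 (SPRED1) and -0.10 to 0.012 (SPRED2) in RSV+TCDD against RSV, and -0.096 to 0.014 (SPRED2) and -0.14 to 0.054 (SPRY1) in RSV+TCDD against TCDD. The SPRY1 extremes with TCDD were those without vehicle replicate 2 and without vehicle replicate 1, and without vehicle replicate 2 its interaction of RSV and TCDD was 1.60.

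With a replicate block, SPRY2 in RSV+TCDD against TCDD was called (0.42, adjusted p = 0.0286 in edgeR). That made 3 members called in place of 2, where 6215 of 16080 tested genes were called. No other call on a member changed with the block. The counts called of the 8 other lists moved by over 1.5 times in 52 of 80 cases under spike-in scaling and in 7 of 80 with DESeq2; the transcripts that follow ERK stayed at 9 lower with Vem in both.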
